A study of Mus musculus with 38 samples.

Results

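The 9 genes described here are the interleukin-6 family members Il6 and Lif, the receptor chains Il6ra, Il11ra1, Il6st, Lifr and Osmr, the transcription factor Stat3 and its feedback inhibitor Socs3. They were taken by symbol from the 13260 genes of the deposited expression table, and all 9 were found in it. Expression was measured by RNA-Seq (SmartSeq2 libraries, each from 100 sorted cells) in 38 libraries of 8 groups from C57Bl/KaLwRijHsd mice, aged 8 to 10 weeks at inoculation. Healthy mice received PBS vehicle, and myeloma-bearing mice received 1000000 cells of 5TGM1-GFP, a mouse myeloma line carrying green fluorescent protein, into a vein. All were culled on day 23, with no further treatment. Endothelial cells (CD31+) and stromal progenitors (Sca1+ALCAM-) came from the bone lining of 5 healthy and 5 myeloma-bearing mice each, and osteoprogenitors (ALCAM+Sca1-) from 4 and 4. GFP+ myeloma cells were sorted from the bone lining and from the central marrow, with 5 libraries each. The tumour is thus a single transplanted line, and the niche cells are defined by surface gates after collagenase digestion. Libraries are named by the letter in their label, and replicates within a group came from different mice. Levels are RPKM (reads per kilobase of gene per 1000000 mapped reads), and the whole reads behind them were recovered from the steps of the values.

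Interleukin-6 family cytokines signal through shared receptors. Il6 binds Il6ra, and this pair engages Il6st (gp130), the chain that carries the signal for the family. Lif signals through Lifr paired with Il6st, oncostatin M through Osmr or Lifr paired with Il6st, and interleukin-11 through Il11ra1 with Il6st. Receptor engagement activates Jak kinases, which phosphorylate Stat3, and Stat3 induces Socs3, which in turn shuts down signalling from gp130. In multiple myeloma Il6 is known as a growth and survival factor made largely by the bone marrow stroma. In bone, the receptors for Lif, oncostatin M and interleukin-11 are known on cells of the osteoblast lineage.

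The libraries held 9735031 to 34883291 reads on genes, and stromal progenitor libraries were the deepest, with medians of 28187009 (healthy) and 28245362 (myeloma-bearing) against 14133940 to 22916814 in the other groups. The sorted types carried their markers. Pecam1 was at least 133 RPKM in every endothelial library and Ly6a (the gene of Sca1) at least 776 RPKM in every stromal progenitor library. Alcam was between 1.97 and 19.2 RPKM in the osteoprogenitors, and the plasma cell gene Igj was at least 2843 RPKM in every myeloma library. Ly6a was not particular to stromal progenitors, being at least 2195 RPKM in every endothelial library. Pdgfra was at least 34.2 RPKM in stromal progenitors and at most 6.01 RPKM in endothelial cells. Osteoprogenitors also held Pdgfra (13.3 to 41.1 RPKM), and Lepr overlapped between the niche types. A pair of stromal progenitor libraries stood apart. The summed level of the 4 neutrophil markers in the table (S100a8, S100a9, Ngp and Camp) was 7233 RPKM in healthy library L and 8061 RPKM in myeloma-bearing library E, against at most 180 RPKM in the other stromal progenitor libraries. The values of stromal comparisons without them are given below. Healthy endothelial library L also stood apart, with 4501 genes above 1 RPKM against 5834 to 7463 in the other 4. Osteoprogenitor library D of myeloma-bearing mice had 6715 such genes, against 7535 to 9096 in the others of its group. In bulk libraries, fewer cells making a transcript and less of it per cell cannot be told apart.

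On GRCm38 the ligand genes are Il6 at chr5:30013114-30019981 and Lif at chr11:4257557-4272514, both on the plus strand. The receptor genes are Il6ra at chr3:89864059-89913196 and Osmr at chr15:6813577-6874969 on the minus strand, and Il11ra1 at chr4:41699989-41769474, Il6st at chr13:112464070-112510086 and Lifr at chr15:7090614-7197489 on the plus strand. Stat3 (chr11:100885098-100939540) and Socs3 (chr11:117966079-117970047) lie on the minus strand. Counts were made over exons. Exons of Stat3 share 72 bases with Stat5a, those of Il6ra share 242 bases with Gm42809 and those of Il11ra1 share 8 bases with Ccl27a, each on the opposite strand. SmartSeq2 libraries do not keep the strand, so reads in these bases cannot be assigned to a single gene. Il11ra1 also has near-identical copies in the mouse genome, so its levels are uncertain.

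All 9 genes had RefSeq promoter windows (GRCm38.p6, 11 windows in all), which were searched on both strands over the 250 bases before the start site for TTCNNNGAA (bound by STAT factors), TGANTCA (AP-1) and GGNNTTTCC (an NF-kB type site). Among 32851 such windows of all genes, 7.02% held the STAT motif, 6.75% the AP-1 motif and 4.93% the NF-kB type motif. Of the 11 windows, 1 held the STAT motif, 2 the AP-1 motif and 1 the NF-kB type motif. The sites are shown for the ligands and for Socs3, the genes of this pathway best known to be switched on by signals, with the motif in capitals and the strand of the gene.
Il6, AP-1 site from 249 to 243 bases before the start, chr5:30012864-30012881, plus strand: cTGAGTCActtttaaaga
Il6, NF-kB type site from 43 to 35 bases before the start, chr5:30013061-30013089, plus strand: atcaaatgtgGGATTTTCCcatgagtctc
Lif, AP-1 site from 228 to 222 bases before the start, chr11:4257330-4257356, plus strand: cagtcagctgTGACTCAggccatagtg
Socs3, STAT site from 154 to 146 bases before the start, chr11:117969502-117969530, minus strand: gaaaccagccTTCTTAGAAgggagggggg
The sites printed do not overlap one another. Starts are those of RefSeq. The Socs3 stretch lies inside the gene span given above, which ends at 117970047, so it is upstream of the RefSeq start only. A match describes letters in the window and does not show that a factor was bound in these cells.

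Il6 was found in endothelial cells, stromal progenitors and healthy osteoprogenitors, and it was either clearly present or almost absent in a given niche library. Of the 28 niche libraries, 16 held from 83 to 2918 Il6 reads and 12 held 2 reads or fewer, 9 of them none. The lowest level among the 16 was 3.15 RPKM and the highest among the 12 was 0.116 RPKM. Il6 was above 3 reads in 7 of 10 endothelial libraries, 7 of 10 stromal progenitor libraries and 2 of 8 osteoprogenitor libraries.

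In healthy stromal progenitors Il6 was 49.0 RPKM in library L and 88.7 RPKM in O, while C held 1 read and M and N held none. In myeloma-bearing mice it was 14.7 RPKM in D, 79.2 in E, 35.4 in G, 108 in I and 105 in J. Each of the 5 myeloma-bearing libraries thus held at least 219 reads, while 3 of 5 healthy libraries had 1 read or none, but the healthy libraries L and O lay within the myeloma-bearing range. Il6 was higher in myeloma-bearing mice by 3.36 on the log2(RPKM + 1) scale (SE 1.23, 95% interval 0.76 to 5.95). The difference did not pass the test (adjusted p = 0.874 in limma, Benjamini-Hochberg over all genes tested). Without libraries L and E it was 4.02 (adjusted p = 0.919 in limma), and over 16 alternatives the difference ran from 2.75 to 6.48 (the highest in voom-limma) and the adjusted p from 0.217 to 0.996.

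Endothelial cells gave a similar spread. Il6 was 37.5 RPKM in healthy library M, 52.9 in N and 3.15 in O, with no read in C or L. In myeloma-bearing mice it was 9.4 RPKM in E, 55.2 in G, 108 in I and 56.4 in J, with no read in D. The groups overlapped and the log2 difference of 1.75 (SE 1.47) was not called (adjusted p = 0.956 in limma). It was 1.09 without healthy library C or L, 1.14 without myeloma-bearing library I and 2.84 without D, none of them called. In osteoprogenitors the levels lay the other way. Il6 was 19.8 RPKM in healthy library L and 20.4 in N (275 and 359 reads), with none in M or O. The 4 myeloma-bearing libraries held 3 reads in all, 2 in I and 1 in J. With fewer than 4 libraries above 1 RPKM, Il6 was not tested in osteoprogenitors in the main fit, and the healthy range included the myeloma-bearing one. Whether the change in osteoprogenitors differed from that in the other niche types was not tested.

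The myeloma cells themselves held almost no Il6. The 10 libraries had 4 reads in all, at most 1 per library and 0.0463 RPKM. Ordered by group median, Il6 was highest in stromal progenitors of myeloma-bearing mice (79.2 RPKM), then in endothelial cells of myeloma-bearing mice (55.2), healthy osteoprogenitors (9.91), healthy endothelial cells (3.15), healthy stromal progenitors (0.0467) and osteoprogenitors of myeloma-bearing mice (0.0375). Both myeloma groups had a median of 0. Every pair of neighbours in this order overlapped in range.

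Lif had another distribution. It was highest in healthy stromal progenitors, at 11.2 RPKM in library C (892 reads), 7.43 in O, 2.27 in N and 0.138 in M, with none in L. In stromal progenitors of myeloma-bearing mice it was 1.70 RPKM in D (94 reads) and absent from E, G, I and J. The log2(RPKM + 1) difference there was -1.43 (SE 0.77), which did not pass the test (adjusted p = 0.956 in limma). The groups overlapped through library L, which had no Lif, and library D. Without the neutrophil-rich libraries L and E the difference was -1.79 (adjusted p = 0.954 in limma). Over 12 alternatives it ran from -5.16 (voom-limma) to -1.36, with adjusted p from 0.285 to 0.995.

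Healthy osteoprogenitors held 1.90 RPKM of Lif in L, 0.588 in M and 2.08 in N, with none in O. Those of myeloma-bearing mice held 0.109 RPKM in I and 2.02 in J, with none in D or G. Endothelial cells had 14 Lif reads over 10 libraries, 13 of them in healthy library O. No Lif read was found in the 10 myeloma libraries or in the 5 endothelial libraries of myeloma-bearing mice. Healthy stromal libraries C and N, which had Lif, had at most 1 read of Il6, and L had Il6 but no Lif, so Il6 and Lif were not always found in the same libraries.

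**Figure D1:**
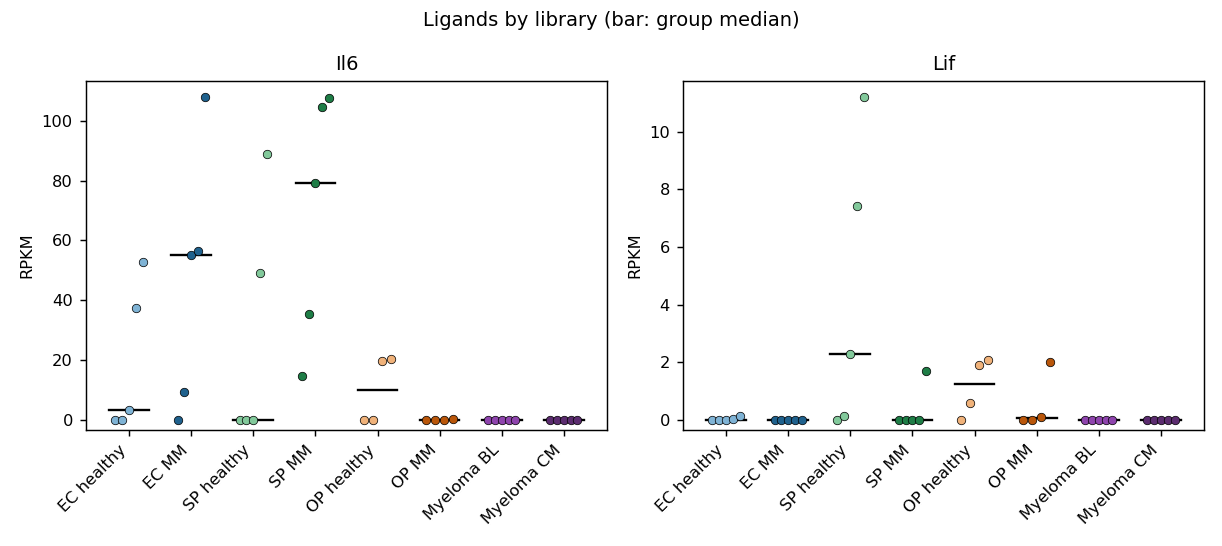
RPKM of Il6 (left) and Lif (right) in each library (points), by group, with the group median as a bar. EC, endothelial cells; SP, stromal progenitors; OP, osteoprogenitors; MM, from myeloma-bearing mice; BL, bone lining; CM, central marrow. All 5 SP libraries from myeloma-bearing mice hold Il6 (14.7 to 108 RPKM) against 2 of 5 healthy ones, and Lif is highest in healthy SP (up to 11.2 RPKM).

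Of the further ligands and ligand subunits of the family, Il11 and Ebi3, each above 1 RPKM in at least 4 libraries, are described here and the others are not. Il11, which acts through Il11ra1, was found in all 4 healthy osteoprogenitor libraries (1.52 to 33.1 RPKM). It was above 1 RPKM in 1 of 4 osteoprogenitor libraries of myeloma-bearing mice, in 3 of 5 stromal progenitor libraries of myeloma-bearing mice and in 1 of 5 healthy ones. Ebi3, the subunit shared by interleukins 27 and 35, was at 5.93 to 71.9 RPKM in the 10 myeloma libraries and held at most 2 reads in any niche library. Il6, Lif and Il11 transcripts were thus found in niche cells, and the soluble receptor-like subunit Ebi3 in the myeloma cells.

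**Figure D2:**
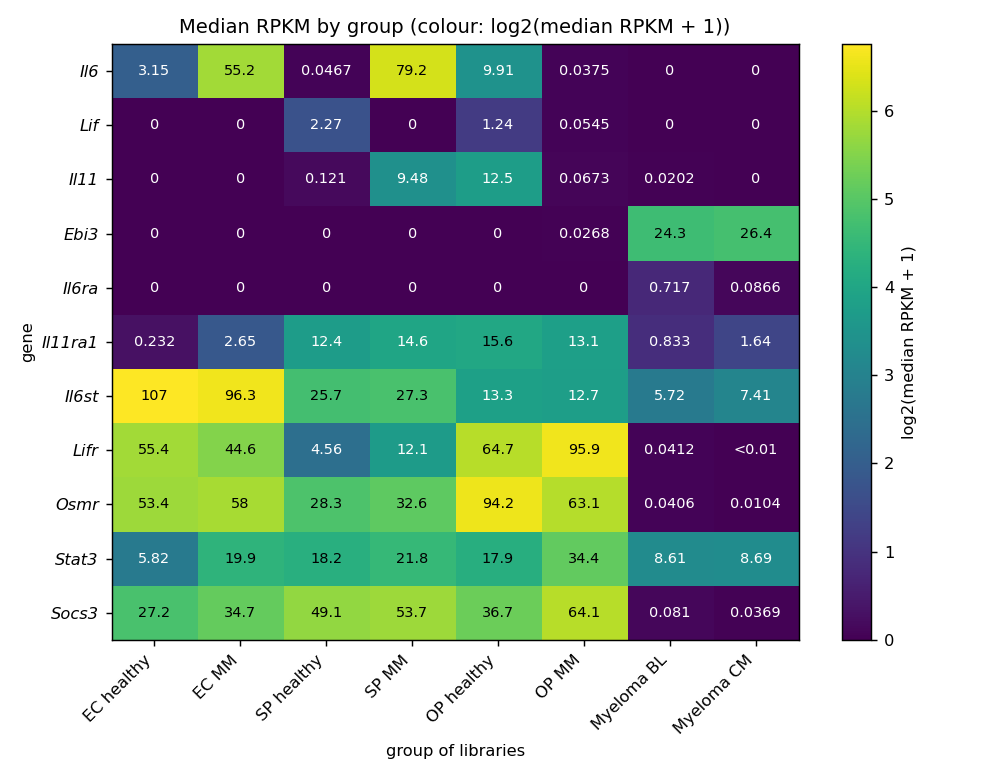
Group medians of RPKM (numbers; colour, log2(median RPKM + 1)) for the 9 genes and the ligand genes Il11 and Ebi3 (rows) in the 8 groups (columns). EC, endothelial cells; SP, stromal progenitors; OP, osteoprogenitors; MM, from myeloma-bearing mice; BL, bone lining; CM, central marrow. Ebi3 has its highest medians in the myeloma groups, where the medians of Lifr, Osmr and Socs3 are below 0.1 RPKM.

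Il6ra, the receptor chain specific to Il6, was sparse in every group. Of the 10 myeloma libraries 8 held more than 3 reads of it. In the bone lining it was 4.23 RPKM in D (347 reads), 0.572 in E, 1.04 in G, 0.0117 in I (1 read) and 0.717 in J. In the central marrow it was 3.21 RPKM in D (230 reads), 0.885 in E, 0.0866 in G and 0.0842 in J, with none in I. The ranges of the 2 niches overlapped, and library D was the highest in both. Of the 28 niche libraries 22 held 3 reads or fewer of Il6ra, and the highest were stromal library C (5.37 RPKM) and endothelial library C (3.61 RPKM), both healthy. The neutrophil-rich stromal libraries L and E had no Il6ra read. The neutrophil marker sum was 0 in healthy stromal library C. It was 162 RPKM in healthy endothelial library C, against at most 1.98 RPKM in the other healthy endothelial libraries. The source of these Il6ra reads was not tested. Il6ra passed 1 RPKM in too few libraries to be tested in the main fit of any comparison. Fits without the filter on low values and fits of all 38 libraries included it.

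Il6st, the common signalling chain, was found in all 38 libraries and was highest in endothelial cells. It was 75.3 RPKM in healthy endothelial library C, 153 in L, 159 in M, 98.7 in N and 107 in O. In healthy stromal progenitors it was 22.5 RPKM in C, 44.9 in L, 15.2 in M, 25.7 in N and 39.3 in O. These groups did not overlap, and Il6st was higher in endothelial cells by 2.01 on the log2 scale (SE 0.56, adjusted p = 0.0282 in limma). This call was lost without the libraries lettered M, where the adjusted p was 0.114 in limma. Healthy osteoprogenitors had 14.3 RPKM in L, 12.2 in M, 18.9 in N and 0.269 in O. They also lay wholly below the endothelial cells, by 3.77 on the log2 scale (SE 0.86, adjusted p = 0.0108 in limma).

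In myeloma-bearing mice the range of Il6st was 77.0 to 120 RPKM for endothelial cells, 3.86 to 52.2 RPKM for stromal progenitors and 0.163 to 14.9 RPKM for osteoprogenitors. Library D of the osteoprogenitors held 9 reads of it against at least 802 in the other 3. Bone lining myeloma cells had 4.67 to 8.01 RPKM, and those of the central marrow 5.15 to 11.6 RPKM. Its log2 change in myeloma-bearing mice was -0.23 in endothelial cells (95% interval -1.40 to 0.93), -0.40 in stromal progenitors (-1.87 to 1.07) and -0.14 in osteoprogenitors (-2.60 to 2.32), none of which passed the test in limma. Without the neutrophil-rich libraries the stromal value was -0.33. In stromal progenitors the sign turned without library J and in osteoprogenitors without library D, where it was 0.14 and 0.77.

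Lifr, the chain that binds Lif, was high in endothelial cells and osteoprogenitors and lower in stromal progenitors. In healthy osteoprogenitors it was 95.1 RPKM in L, 30.5 in M, 63.6 in N and 65.9 in O. In healthy stromal progenitors it was 2.4 RPKM in C, 3.95 in L, 4.56 in M, 13.3 in N and 6.84 in O. Every osteoprogenitor library was above every stromal one, by 3.24 on the log2 scale (SE 0.66, adjusted p = 0.0153 in limma). Leaving out the libraries lettered L or those lettered O ended this call, and over 12 alternatives the adjusted p ran from 0.000446 to 0.131 in limma while the difference stayed between 2.92 and 3.59. Healthy endothelial cells had 64.9 RPKM in C, 155 in L, 31.0 in M, 42.3 in N and 55.4 in O. They too lay above all stromal libraries, by 3.24 (SE 0.74, adjusted p = 0.00825 in limma), and by 2.81 without the libraries lettered L (adjusted p = 0.0243). In osteoprogenitors of myeloma-bearing mice Lifr was 94.7 RPKM in D, 97.0 in G, 119 in I and 88.1 in J, with the healthy library L in the same range, and the log2 difference of 0.74 (95% interval -0.24 to 1.71) did not pass the test.

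Osmr, the specific chain of the oncostatin M receptor, was found in every niche library, from 14.7 to 151 RPKM. Healthy osteoprogenitors had 61.8 RPKM in L, 123 in M, 65.1 in N and 129 in O, and healthy stromal progenitors had 28.3 in C, 25.6 in L, 50.7 in M, 21.2 in N and 42.5 in O. The groups did not overlap, but the log2 difference of 1.46 (SE 0.47) was not called (adjusted p = 0.149 in limma). Of 12 alternatives it was called in 1, with each library scaled to the same sum of RPKM (adjusted p = 0.0524 in limma), and the others gave 0.108 to 0.345. Without the neutrophil-rich library L the difference was 1.38 (adjusted p = 0.209 in limma). In myeloma-bearing mice Osmr ranged from 14.7 to 151 RPKM in stromal progenitors, and without library J its log2 change there turned from 0.42 to -0.022.

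Il11ra1 was between 1.64 and 50.8 RPKM in the 10 stromal progenitor libraries and between 1.01 and 20.6 RPKM in the 8 osteoprogenitor libraries. In endothelial cells it ran from 0 to 38 RPKM, with 4 of 10 libraries at 3 reads or fewer. Myeloma cells had at most 3.92 RPKM. Its log2 change in myeloma-bearing mice was not called in any niche type, and in stromal progenitors it turned from 0.21 to -0.33 without the neutrophil-rich libraries.

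Stat3, the main transcription factor of the pathway, was steady in the healthy mesenchymal groups and variable in endothelial cells. Healthy osteoprogenitors had 17.3 RPKM in L, 19.2 in M, 18.5 in N and 14.4 in O, and in myeloma-bearing mice 12.3 in D, 38.4 in G, 56.7 in I and 30.3 in J. The last 3 were above all healthy libraries and D was below them, and the log2 difference of 0.77 (SE 0.63) was not called (adjusted p = 0.981 in limma). Stromal progenitors had 11.8 to 20.3 RPKM in healthy and 14.2 to 36.3 RPKM in myeloma-bearing mice. Endothelial cells ran from 0.0254 RPKM (2 reads, healthy library L) to 49.1 RPKM. Without library L, which had the fewest genes above 1 RPKM, the endothelial log2 change was 0.57 for Stat3, in place of 1.27, and -0.35 for Lifr, in place of -0.69, neither of them called. Bone lining myeloma cells had 3.19 to 20.8 RPKM, and those of the central marrow 6.33 to 12.5 RPKM.

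Socs3, the feedback inhibitor that Stat3 induces, was present in all 28 niche libraries. In osteoprogenitors it was 33.1 RPKM in healthy library L, 49.1 in M, 40.3 in N and 26.4 in O, and in myeloma-bearing mice 39.8 in D, 81.0 in G, 63.8 in I and 64.3 in J. As for Stat3, libraries G, I and J were above all healthy libraries. The log2 difference of 0.72 (SE 0.49) was not called (adjusted p = 0.981 in limma). Stromal progenitors had 24.7 to 57.9 RPKM in healthy and 12.6 to 86.8 in myeloma-bearing mice, and endothelial cells had 8.39 to 75.1 and 26.6 to 113 RPKM. The stromal log2 change of 0.17 turned to -0.11 without the neutrophil-rich libraries. The 10 myeloma libraries held 39 reads of Socs3 in all, at most 13 per library.

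**Figure D3:**
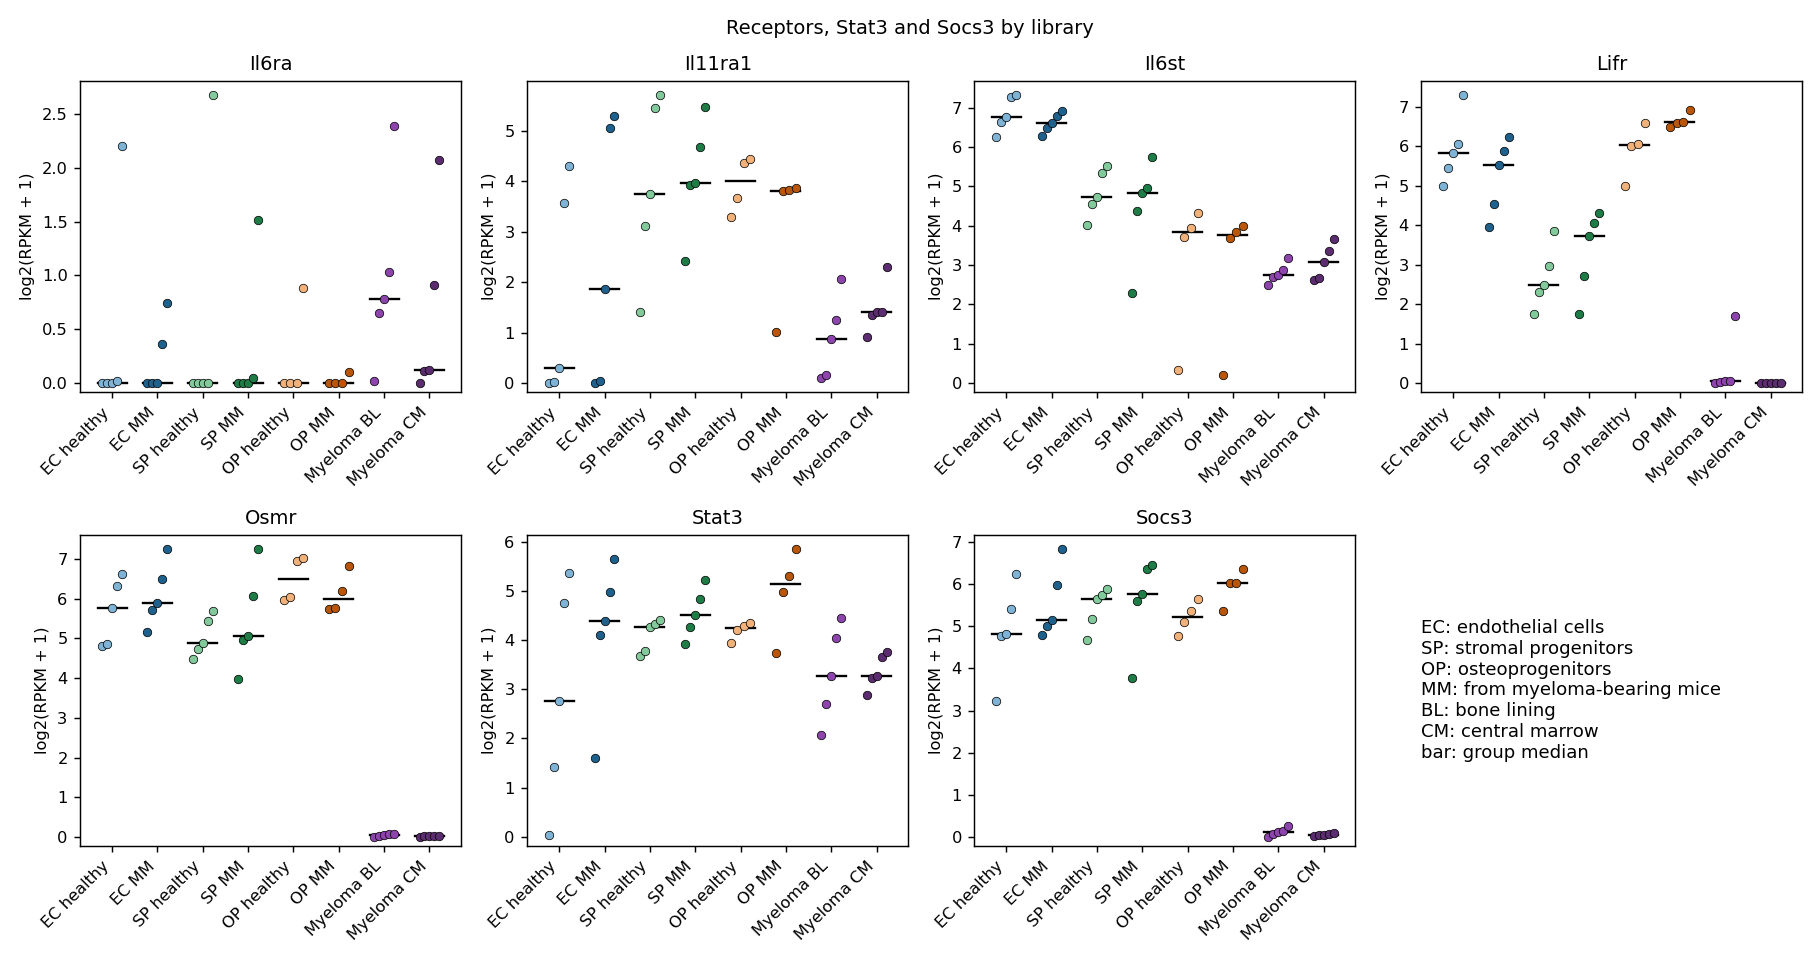
log2(RPKM + 1) of the receptor chains, Stat3 and Socs3 in each library (points), by group, with the group median as a bar; the scale of the vertical axis differs between panels. Il6st is highest in endothelial cells, Lifr is lower in stromal progenitors than in endothelial cells and osteoprogenitors, and Lifr, Osmr and Socs3 are near 0 in the myeloma cells except for Lifr in bone lining library J (2.26 RPKM).

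The first question of the design was what changes in niche cells when mice bear myeloma. No member passed the limma test in any niche type, for which a gene needed an adjusted p under 0.1 together with a log2 fold change beyond 1 in either direction. In endothelial cells 7 members had values enough to be tested and 0 were called, against 0 of 7880 genes (0%), and 414 genes had an unadjusted p below 0.05. In stromal progenitors 0 of 8 were called, against 0 of 8747 genes (0%), with 437 below 0.05. In osteoprogenitors 0 of 6 were called, against 1 of 8664 genes (0.0115%), with 422 below 0.05. Voom-limma on the recovered reads of all 38 libraries, the method of the study, called 251, 82 and 28 genes in the same comparisons and again 0 members. The median log2 change of the tested members was 0.66 in endothelial cells, 0.32 in stromal progenitors and 0.29 in osteoprogenitors, beside 0.07, -0.00062 and -0.03 for all genes tested. The other pathway genes tested had medians of -0.22, 0.31 and 0.25. Among the 29 other pathway genes in the table (of 35 listed: further ligands and receptors, Jak kinases and adaptors, other Stat and Socs genes, phosphatases, sheddases and Stat3 targets), 22, 23 and 22 were tested and 0 were called in each.

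**Figure D4:**
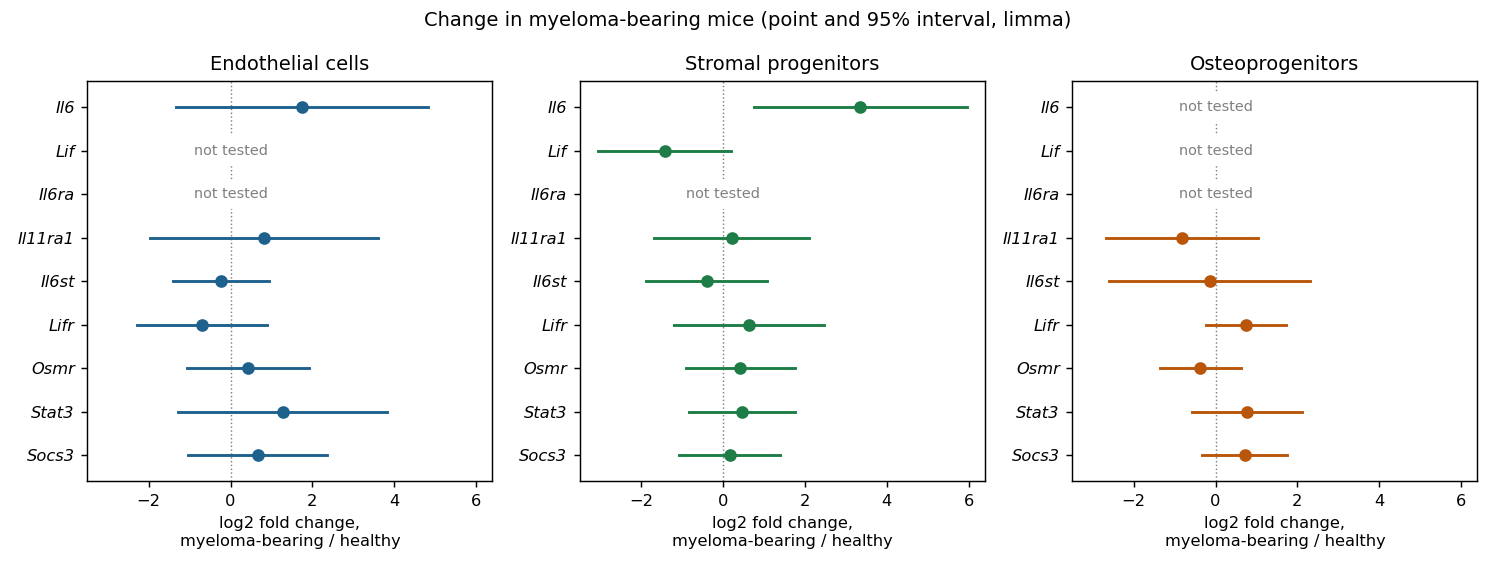
log2 fold change on the log2(RPKM + 1) scale, myeloma-bearing over healthy (horizontal axis), for each gene (vertical axis) in the 3 niche types, with the 95% interval from limma. Only the interval of Il6 in stromal progenitors (0.76 to 5.95) excludes 0 before adjustment. Genes above 1 RPKM in fewer than 4 of the libraries compared were not tested.

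The second question was whether myeloma cells at the bone lining differ from those in the central marrow. Of the members, Il11ra1, Il6st and Stat3 were tested, and 0 were called, against 18 of 8857 genes (0.203%). The log2 differences, bone lining over central marrow, were -0.59 for Il11ra1 (95% interval -1.57 to 0.39), -0.28 for Il6st (-1.07 to 0.51) and -0.05 for Stat3 (-1.01 to 0.90). The groups overlapped for all 3, and 530 genes had an unadjusted p below 0.05. None of the 21 other pathway genes tested was called.

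Between healthy niche types, Il6st and Lifr were called between endothelial cells and stromal progenitors (2 of 7 members tested, against 17.3% of 8457 genes). Lifr alone was called between osteoprogenitors and stromal progenitors (1 of 8, against 3.58% of 8707 genes), and Il6st alone between endothelial cells and osteoprogenitors (1 of 7, against 16.5% of 8258 genes). With so few members tested these counts say nothing particular to the members, and the comparisons share libraries. Leaving out the neutrophil-rich library L of the stromal progenitors kept these calls, with log2 differences of 2.19 for Il6st and 3.15 for Lifr between endothelial cells and stromal progenitors.

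Of the other pathway genes, 4 were higher and 1 lower in healthy endothelial cells than in stromal progenitors, of 22 tested (17.3% of all genes were called). Lrg1, a secreted glycoprotein that Stat3 induces, was above 1 RPKM in 1 of 5 healthy stromal progenitor libraries (12.8 RPKM) and reached the filter through the endothelial libraries (114 to 290 RPKM), so the direction of its call was fixed. On the log2 scale the adaptor Gab1 and the receptor sheddase Adam10 were higher by 3.21 and 2.57. Jak1, the kinase most used by gp130, was higher by 1.82. The repressor Bcl6 was lower, with a log2 difference of -3.16. Against osteoprogenitors, 3 were higher and 2 lower of 22 (16.5% of all genes). Both counts are near the share of all genes. Adam10 was higher by 2.79 and Jak1 by 2.09, and the log2 difference of Bcl6 was -3.09. Lrg1 was at most 0.121 RPKM in healthy osteoprogenitors, and the direction of its call was fixed in the same way. Il11 had no read in the 5 healthy endothelial libraries and was above 1 RPKM in the 4 osteoprogenitor libraries, through which alone it entered the test, so its call had a fixed direction and is given in the count only. Between osteoprogenitors and stromal progenitors 0 of 22 were called, and 1142 of all genes had an unadjusted p below 0.05.

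The third comparison set the bone lining myeloma cells beside the niche cells of the same region in myeloma-bearing mice. These cell types differ at 41.5% of 9207 genes against endothelial cells, 42.4% of 9460 against stromal progenitors and 42.9% of 9316 against osteoprogenitors, so calls were common, and the members low in myeloma cells entered the test only through the niche libraries. Of the members, 5 of 7, 6 of 7 and 5 of 6 were called, all lower in myeloma cells. Over all genes tested, 1574, 1783 and 1718 were called lower and 2243, 2224 and 2278 higher. Against endothelial cells, stromal progenitors and osteoprogenitors in turn, the log2(RPKM + 1) difference, myeloma over niche, was -6.05, -5.42 and -6.09 for Osmr. For Socs3 it was -5.44, -5.47 and -5.82, and for Lifr -4.85, -2.93 and -6.27. Without the neutrophil-rich library E the differences against stromal progenitors were -5.54 for Osmr, -5.26 for Socs3, -3.32 for Lifr, -2.85 for Il11ra1 and -5.64 for Il6. In reads, Osmr had 16 in the 5 bone lining myeloma libraries against 28005 in the 5 stromal ones.

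Il6 was lower in the myeloma cells, with a log2 difference of -4.34 against endothelial cells (adjusted p = 0.00705 in limma), where endothelial library D also had no read, and of -5.77 against stromal progenitors (adjusted p = 8e-06 in limma). It entered both tests only through the niche libraries, which fixed the direction. Against endothelial cells 4 libraries were above 1 RPKM. Of the fits that left out a letter, only that without D could test Il6, with a difference of -5.44. Il6 was not tested against osteoprogenitors in the main fit. With 2 reads in the 5 myeloma libraries and 8028 in the 5 stromal libraries, the ratio of the reads per effective library size was 4062, with an exact Poisson interval of 1124 to 33540 that covers counting error only. Il6st had a log2 difference of -3.82 against endothelial cells and of -1.64 against stromal progenitors (adjusted p = 0.0591 in limma), where the groups overlapped through library J (3.86 RPKM). The second call was lost without the libraries lettered D (adjusted p = 0.156), E (0.170), G (0.147) or I (0.138), in voom-limma (0.129), with scaling to the same sum (0.232) and without the neutrophil-rich library E alone (0.104). Il6st was not called against osteoprogenitors.

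The log2 difference of Il11ra1 was -3.20 against stromal progenitors and -2.23 against osteoprogenitors, where the groups overlapped. The second was not called without the libraries lettered G (adjusted p = 0.118 in limma) or J (0.136), in voom-limma (0.168) or in the fit of all 38 libraries (0.116). Stat3 was called against osteoprogenitors alone, at -1.66 (adjusted p = 0.0531 in limma) and with overlapping groups. That call was lost without the libraries lettered E (adjusted p = 0.110), G (0.134), I (0.103) or J (0.196), in voom-limma (0.145), in the fit of all 38 libraries (0.125) and with scaling to the same sum (0.154). Against osteoprogenitors the count of called members was 3 without the libraries lettered D, 4 without E, 1 without G, 2 without I and 0 without J. Leaving out D, G, I or J leaves 3 osteoprogenitor libraries, so that a gene found only in osteoprogenitors no longer reaches 4 libraries above 1 RPKM and is not tested. The summed level of the 7 immediate-early genes (Fos, Fosb, Jun, Junb, Egr1, Atf3 and Ier2), which respond to cell handling, moved with these gaps, at 97.4 to 249 RPKM in bone lining myeloma cells and 1557 to 5145 in the niche libraries of myeloma-bearing mice. Its part in the levels of Socs3 and Il6 was not tested.

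Of the other pathway genes, 4 were called higher and 6 lower of 23 tested against endothelial cells (41.5% of all genes were called), 4 and 8 of 24 against stromal progenitors (42.4%), and 3 and 11 of 25 against osteoprogenitors (42.9%). The first 2 counts are near the share of all genes. Jak1 had 0.175 to 3.97 RPKM in bone lining myeloma cells and its log2 differences were -5.20, -3.71 and -4.35. Lrg1 was at most 0.221 RPKM in bone lining myeloma cells and between 194 and 295 RPKM in the endothelial cells of myeloma-bearing mice. Bcl6 was above 1 RPKM in 1 of 5 bone lining myeloma libraries (1.68 RPKM) and at least 11.3 RPKM in the stromal progenitors and osteoprogenitors of myeloma-bearing mice, through which it reached the filter. The transcription factor Junb was lower against endothelial cells (-3.80), stromal progenitors (-3.70) and osteoprogenitors (-3.68). The transcription factor Cebpd had at most 1 read in a bone lining myeloma library and was between 6.99 and 81.9 RPKM in the niche libraries of myeloma-bearing mice. Ebi3 had at most 1 read in those niche libraries. Cebpd, Ebi3, Bcl6 and, against endothelial cells, Lrg1 reached the filter through 1 of the groups compared only, so the direction of their calls was fixed.

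The genes whose pattern was most like Il6 over the 38 libraries, among 12683 genes above 1 RPKM in at least 4 libraries, were Synpo (Pearson r of log2(RPKM + 1) 0.65), Flna (0.65), Bcr (0.65), Cd97 (0.65) and Myl9 (0.63). Those most like Lif were Gcnt1 (0.82), Fbp1 (0.77), P4htm (0.76), Hrasls (0.74) and Perp (0.73). These values describe the 38 libraries, which share cell types, and carry no test. The rank correlations were 0.56 to 0.64 for the genes like Il6 and 0.33 (Fbp1) to 0.58 for those like Lif.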

How the data were processed

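RNA-Seq was analysed for 38 libraries, 100 sorted cells each. Per the labels, the authors aligned reads to GRCm38 (mm10) with STAR 2.4.0 and counted them with featureCounts of Subread 1.4.5-p1. Genes above 1 CPM in at least 4 samples were kept, and the deposited values are RPKM calculated by the authors from these reads with scaled library sizes. RPKM divides by gene length, so levels compare between genes, but a highly expressed gene lowers all others in its library. Groups were taken from the labels. A gene of the pathway list is not reported here. The members and gene lists were chosen with earlier results of these data known.

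Whole reads were recovered from the RPKM steps for 13260 of 13260 genes (100.0% of genes, each value within 0.01 of a whole number). They gave 9735031 to 34883291 reads per library, median 18358479. In this count table of PCR copies without molecular identifiers, a zero allows 3 reads, and intervals cover counting error only.

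The main fit of each comparison used limma 3.58.1 in R 4.3.3 (lmFit, eBayes with trend) on log2(RPKM + 1) of the libraries compared. A gene was tested if at least 4 of these exceeded 1 RPKM, and called at a Benjamini-Hochberg adjusted p under 0.1 with a log2 fold change beyond 1 in either direction. Folds on this scale understate the change of low genes. On simulated data for stromal progenitors (13260 genes, 200 changed by 8-fold), 100% of changed genes tested were called at a dispersion of 0.1 and 24.9% at a dispersion of 1. Alternatives were a pseudocount of 0.1, no filter, all 38 libraries, voom-limma on recovered reads, scaling to the same sum, a replicate block, each replicate letter left out, and, chosen after seeing the data, the neutrophil-rich libraries left out. All 9 members are named with values, and of other pathway genes at most 5 called genes per comparison with the largest change, ligands above 1 RPKM in at least 4 libraries, and the 5 genes most like Il6 and Lif. Markers, positions (GENCODE vM21) and promoters (RefSeq) were read with Python 3.11.15, numpy 2.4.6, pandas 2.3.3 and scipy 1.17.1, and figures were drawn with matplotlib 3.10.9.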

Additional observations from a re-analysis of the deposited data

Results flagged for a closer look

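In 63 sets of 1 gene in 1 group, 13 had a library far from the others by Dixon's criterion, which chance alone gives in about 1 in 20 sets of normal values. For Lif these were healthy endothelial library O (0.133 RPKM), osteoprogenitor library J (2.02) and stromal progenitor library D (1.70) of myeloma-bearing mice. For Il6ra they were healthy endothelial library C (3.61 RPKM), healthy stromal progenitor library C (5.37), healthy osteoprogenitor library N (0.850), stromal progenitor library G of myeloma-bearing mice (1.86) and myeloma library D in both the bone lining (4.23) and the central marrow (3.21). For Il11ra1 central marrow myeloma library J was high (3.92 RPKM) and osteoprogenitor library D of myeloma-bearing mice was low (1.01). For Lifr healthy endothelial library L (155 RPKM) and bone lining myeloma library J (2.26 RPKM, 312 reads, against at most 11 reads in the other 4) were high.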

How the results depend on the processing

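The count of members called stayed within 1.5 times its value in 112 of 124 alternative fits. Voom-limma on recovered reads called 4 members between healthy endothelial cells and stromal progenitors and 3 between endothelial cells and osteoprogenitors (Lif and Il11ra1 added), and 3 between bone lining myeloma cells and osteoprogenitors, as did the fit of all 38 libraries. Scaling to the same sum called 2 between osteoprogenitors and stromal progenitors. Leaving out each replicate letter gave 1 to 3 calls between healthy endothelial cells and stromal progenitors, 0 to 1 between healthy osteoprogenitors and stromal progenitors and 0 to 4 between bone lining myeloma cells and osteoprogenitors, the last with fewer members tested. Changes that turned sign were all uncalled. Il6st in osteoprogenitors was 0.15 and Stat3 of the myeloma cells 0.079 in voom-limma, and without the neutrophil-rich libraries Il11ra1 and Socs3 in stromal progenitors were -0.33 and -0.11. Leaving out a replicate moved Socs3 (-0.048 to 0.62), Il11ra1 (-0.41 to 0.66), Il6st (-0.73 to 0.14) and Osmr (-0.022 to 0.80) in stromal progenitors, Il6st in osteoprogenitors (-1.05 to 0.77) and Stat3 between the myeloma niches (-0.46 to 0.33). The cause was not tested.

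Calls over all genes were 0, 0 and 1 between myeloma-bearing and healthy endothelial cells, stromal progenitors and osteoprogenitors, and 18 between the myeloma niches. They rose to 150, 28, 24 and 23 with all 38 libraries, and voom-limma gave 251, 82 and 28, and fewer (12) between the myeloma niches. Between healthy niche types they rose from 1465, 312 and 1361 to 2469, 501 and 2570 with all 38 libraries and to 2888, 646 and 2883 in voom-limma. Without the filter on low values 1 gene was called between the myeloma niches, and leaving out the letter O lowered the count between healthy endothelial cells and osteoprogenitors to 483. Scaling to the same sum moved the median log2 change of all genes by 0.15 to 0.60 in 6 comparisons, most between bone lining myeloma cells and stromal progenitors. Correlations of the deviations of libraries with the same letter were -0.043 to 0.115, and those of different letters -0.111 to 0.101. These values do not settle whether a shared letter marks the same mouse. The main fits left the letters unpaired. Between 1 and 3 letters per comparison correlated best with themselves, 3 of 5 for bone lining myeloma against endothelial cells and 3 of 4 against osteoprogenitors. The fits with a replicate block called 0, 2, 1, 1, 5, 6 and 5 members in the 7 comparisons whose groups share letters, the same counts as without it. No paired analysis was possible between myeloma-bearing and healthy mice because these groups share no letters. Levels of a few reads, as for Il6ra and Lif, are limited by depth and by the 100 cells sorted.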
